A study of Homo sapiens with 7 samples.

Results

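The genes described here are the human ZNF genes, named ZNF with a number and an optional letter, whose level averaged at least 3 CPM (counts scaled by library size) over 7 libraries of UM-UC-3, an established cell line from a bladder carcinoma. There were 322 such genes among 416 ZNF symbols and 13872 listed genes, and they are called the members below. The members were chosen by their mean level over all 7 libraries, so that level is given as a description. That threshold used no difference between clone groups, but the gene family was picked with earlier results of these data known. The study set 3 clones with high aldehyde dehydrogenase (ALDH) activity (ALDH-high clones 1, 6 and 10), which its submitters describe as cancer stem-like, against 3 clones with low activity (ALDH-low clones 1, 3 and 8). A single library of the wild-type line served as control. All clones were isolated with the ALDEFLUOR assay, a fluorescent readout of ALDH activity. The growth protocol gives culture in DMEM with serum for the ALDH-high clones, and no drug or genetic change is given for any library. Each clone gave 1 library and all clones came from the same line, so n = 3 per group counts clones.

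Most ZNF genes encode proteins with C2H2 zinc fingers, small folds that hold a zinc ion and read a few bases of DNA each. An array of fingers can thus recognise a long site. Many also carry a KRAB domain, which recruits TRIM28 and through it the histone methyltransferase SETDB1, and these set repressive H3K9 methylation on retroelements, imprinted regions and other targets. KRAB genes have multiplied by duplication and lie in clusters, most of all on chromosome 19. ZNF members without KRAB include activators of housekeeping genes, RNA-binding proteins and mitotic factors.

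The members were mostly weakly expressed. Their mean levels ran from 3.15 CPM to 210 CPM with a median of 9.35 CPM, and 61 of 322 averaged at least 20 CPM. Together they took 0.471 to 0.546% of all listed CPM per library. In the sequence of their transcripts, 185 encoded a KRAB motif, and the median member encoded 10 fingers. Chromosome 19 held 135 members. Just inside the threshold were ZNF732, ZNF81 and ZNF565 at means of 3.15, 3.22 and 3.25 CPM, and just outside were ZNF225 (just under 3 CPM), ZNF483 (2.96 CPM) and ZNF283 (2.93 CPM). For 28 members the 7 values were identical to those of another listed gene, so the source of their reads is uncertain. Among them were ZNF761 (with TPM3P9), ZNF117 (with ERV3-1), ZNF207 (with MIR632) and ZNF93 (with AC007204.2). The sort was visible in ALDH1A1, an aldehyde dehydrogenase gene, at 96.32, 33.37 and 42.2 CPM in the ALDH-high clones 1, 6 and 10, against 0, 0.08 and 0 CPM in the ALDH-low clones 1, 3 and 8, and 37.85 CPM in wild type. Of 15 urothelial markers 5 were listed, and the uroplakins, GATA3, KRT5, KRT20 and TP63 were not among the listed genes. Of 7 markers of immune, endothelial, hepatic and stromal cells, CD68 alone was listed, at 84.32, 130.8 and 120.68 CPM in the ALDH-high clones, against 92.88, 66.86 and 64.36 CPM in the ALDH-low clones. Among the urothelial keratins, KRT7 averaged 1.99 CPM in the ALDH-high clones and 5.30 CPM in the ALDH-low clones without overlap, while KRT8 (136 and 81.6 CPM) and KRT18 (502 and 302 CPM) had higher means in the ALDH-high clones, with overlap. None of these 4 genes passed the test (limma adjusted p = 0.118 to 0.255), and their part in the results below was not tested. The other listed urothelial markers, PPARG and FOXA1, also had overlapping groups. PPARG averaged 0.87 CPM in the ALDH-high clones and 3.78 CPM in the ALDH-low clones, with 7.94 CPM in ALDH-low clone 3 (limma adjusted p = 0.441). FOXA1, which was not tested, averaged 0.593 and 0.503 CPM.

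Most members were somewhat higher in ALDH-high clones. The difference was positive for 221 of 322 members (68.6%), against 50.4% of the 12705 genes tested. Its median was 0.17 on log2(CPM + 1), against 0.00 over all genes tested. The shift was uneven among the ALDH-low clones. In ALDH-low clones 1, 3 and 8, 71.7, 66.5 and 57.1% of members lay below the ALDH-high mean. The median member differed from the other 6 libraries by -0.15, -0.11 and 0.04 in these clones, and by 0.18, 0.06 and 0.07 in ALDH-high clones 1, 6 and 10. Over all genes tested these medians were -0.03, 0.01 and 0.06 in ALDH-low clones 1, 3 and 8. In ALDH-high clones 1, 6 and 10 they were 0.04, 0.04 and 0.01. The member median of ALDH-low clone 8 was thus close to those of ALDH-high clones 6 and 10. It lay below the median of its own library over all genes tested, whereas theirs lay above. The groups did not overlap in 70 members that were higher in ALDH-high clones (21.7%, against 14.0% of all genes tested) and in 17 that were lower (5.28%, against 12.1%). In either direction, groups without overlap made up 26.1% of all genes tested. Single genes seldom passed the test. With limma and Benjamini-Hochberg adjustment over all genes tested at a threshold of 0.05, 3 members rose and 0 fell, where 1.34% of all genes tested passed, 0.645% higher and 0.693% lower. The test took genes that reached 1 CPM in at least 3 of the 6 clones, and 2 of the 3 called members (ZNF716 and ZNF732) met this through the ALDH-high clones alone, so the 3 calls are no support for a common direction. At an unadjusted p under 0.05 there were 40 members higher and 9 lower, 15.2% of members against 19.7% of all genes tested. These are bulk libraries, in which fewer cells with a transcript and less transcript per cell cannot be told apart.

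**Figure D1:**
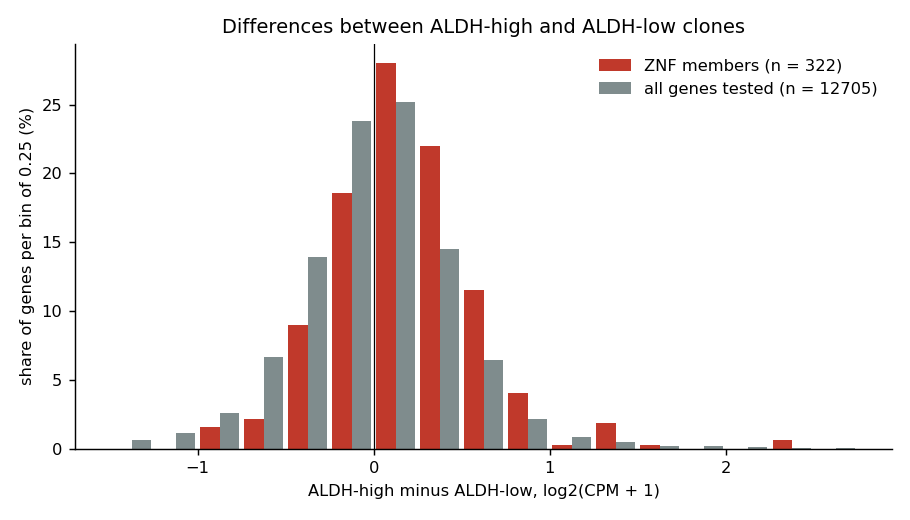
Share of genes (percent, y axis) in each bin of the difference between ALDH-high and ALDH-low clones in log2(CPM + 1) (x axis, positive where ALDH-high is higher), for the 322 ZNF members in red, left in each pair, and all 12705 tested genes in grey. The members lie further right: 68.6% of them are above 0, against 50.4% of all genes tested.

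The members that rose were ZNF716, ZNF732 and ZNF761, each with a KRAB motif. ZNF716 (ENSG00000182111, chromosome 7) stood at 6.20, 4.80 and 4.04 CPM in the ALDH-high clones 1, 6 and 10, against 0.32, 0 and 0 CPM in the ALDH-low clones 1, 3 and 8, and 9.07 CPM in wild type. It was thus present in every ALDH-high clone and in wild type, and listed at 0 in 2 ALDH-low clones. It rose by 2.44 on log2(CPM + 1) (SE 0.239, limma adjusted p = 0.00395), and the call was kept when any clone was left out, with adjusted p-values of 0.0140 to 0.0359.

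ZNF732 (ENSG00000186777, chromosome 4) had the same arrangement, with 5.13, 5.87 and 5.44 CPM in the ALDH-high clones, against 0, 0 and 0.88 CPM in the ALDH-low clones, and 4.76 CPM in wild type. It rose by 2.39 (SE 0.290, limma adjusted p = 0.0127). Without ALDH-high clone 6 or 10, or without ALDH-low clone 1, it no longer passed (limma adjusted p = 0.0501, 0.0752 and 0.0629). ZNF716 and ZNF732 reached a mean of 3 CPM only through the ALDH-high and wild-type libraries, and met the filter of the test only through the ALDH-high clones. With no filter both still passed (limma adjusted p = 0.00389 and 0.0145).

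ZNF761 (ENSG00000160336, chromosome 19) was present in both groups, at 13.71, 13.38 and 16.20 CPM in the ALDH-high clones, against 3.80, 6.40 and 4.6 CPM in the ALDH-low clones, with 9.19 CPM in wild type between them. It rose by 1.40 (SE 0.222, limma adjusted p = 0.0336). Its call was lost without any single clone other than ALDH-low clone 3, with adjusted p-values up to 0.145. TPM3P9, a pseudogene of tropomyosin 3, has the same 7 values.

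Among members whose groups did not overlap, the next largest differences were those of ZNF704, ZNF28, ZNF468, ZNF93, ZNF726, ZNF85 and ZNF268, and none of these passed the test (limma adjusted p = 0.103 to 0.397). ZNF704, a chromosome 8 member with a single recognised finger, stood at 9.42, 13.83 and 13.68 CPM in the ALDH-high clones, against 1.72, 2.36 and 7.68 CPM in the ALDH-low clones, and 7.75 CPM in wild type. ZNF268, a KRAB gene of chromosome 12 with 24 fingers, had 5.60, 5.70 and 5.44 CPM in the ALDH-high clones, against 1.76, 1.89 and 3.72 CPM in the ALDH-low clones, and 3.56 CPM in wild type. The 3 ALDH-high clones lay close together for ZNF268, with an SD of 0.131 CPM, against 1.10 CPM in the ALDH-low clones. ZNF28 and ZNF468, neighbouring KRAB genes on chromosome 19, followed each other: ZNF28 had 10.85, 13.75 and 16.72 CPM in the ALDH-high clones, against 8.72, 1.41 and 5.56 CPM in the ALDH-low clones. ZNF468 had 10.21, 12.93 and 15.96 CPM in the ALDH-high clones, against 8.24, 1.41 and 5.36 CPM in the ALDH-low clones. The labels do not say how reads were divided between such neighbours.

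The members that were lower in ALDH-high clones differed by less than 1 log2 unit and none passed the test. ZNF438 came nearest, at 6.95, 6.36 and 9.28 CPM in the ALDH-high clones, against 12.64, 18.42 and 14.08 CPM in the ALDH-low clones and 12.99 CPM in wild type (difference -0.91, SE 0.223, limma adjusted p = 0.0906). ZNF189 had 5.80, 6.24 and 3.08 CPM in the ALDH-high clones, against 8.64, 12.49 and 8.84 CPM in the ALDH-low clones. ZNF618, at 2.70, 5.95 and 5.24 CPM in the ALDH-high clones against 8.52, 8.17 and 11.32 CPM in the ALDH-low clones, was lowest in ALDH-high clone 1 and in wild type (2.20 CPM). ZNF782, ZNF12, ZNF462, ZNF316, ZNF280D, ZNF32 and ZNF114 completed the list of 10, with differences of -0.47 to -0.68.

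**Figure D2:**
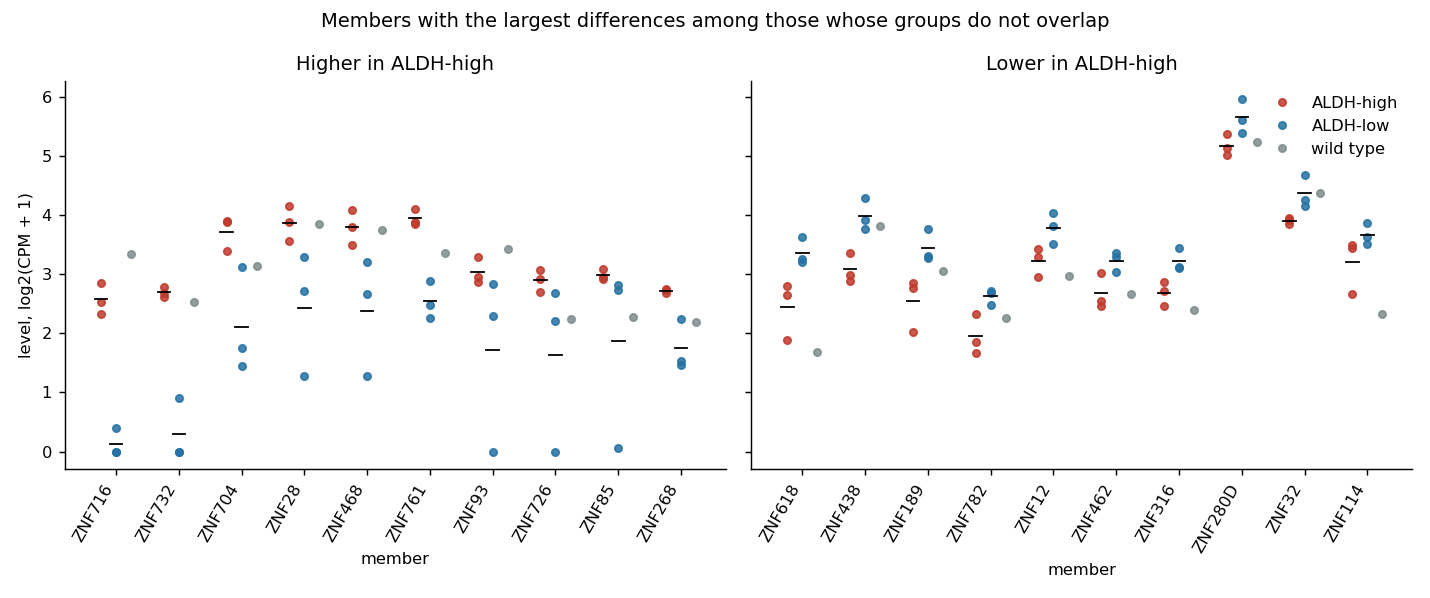
Level (log2(CPM + 1), y axis) of the 10 members with the largest positive difference (left panel) and the 10 with the largest negative difference (right panel) among members whose groups do not overlap. Each point is 1 library: ALDH-high in red, ALDH-low in blue, wild type in grey, with group means as black bars. ZNF716 and ZNF732 are at or near 0 in ALDH-low clones, while ZNF93, ZNF726 and ZNF85 are near 0 in a single ALDH-low clone.

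By the motifs found in their transcripts, the share of members higher in ALDH-high clones ran from 54.5 to 100%. The motif search misses divergent domains, so the classes without a KRAB motif can hold genes of KRAB proteins. The classes are therefore not a clean split by protein type. Of 185 members with a KRAB motif, 137 (74.1%) were higher in ALDH-high clones, with a median difference of 0.23. The groups did not overlap in 49 of them on the higher side (26.5%, against 14.0% of all genes tested) and 9 on the lower side (4.86%, against 12.1%). All 9 members with a SCAN motif (a dimerisation domain) but no KRAB motif were higher, with a median of 0.19, yet none passed an unadjusted p of 0.05. Members with neither motif were nearer the background: 58 of 97 (59.8%) with 3 or more fingers and 12 of 22 (54.5%) with fewer were higher, with medians of 0.09 and 0.01. Other zinc finger families, named by their own prefixes, gave 54.3% of 35 ZBTB genes, 57.1% of 14 ZFP genes and 38.5% of 13 ZSCAN genes. On chromosome 19, 99 of 135 members (73.3%) were higher, while 46.2% of 728 other tested genes there were. KRAB members were higher in 76.6% of 111 genes on chromosome 19 and in 70.3% of 74 genes elsewhere. Members without a KRAB motif were higher in 60.9% of 23 genes on chromosome 19 and in 61.9% of those elsewhere. The differences between these classes were not tested.

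**Figure D3:**
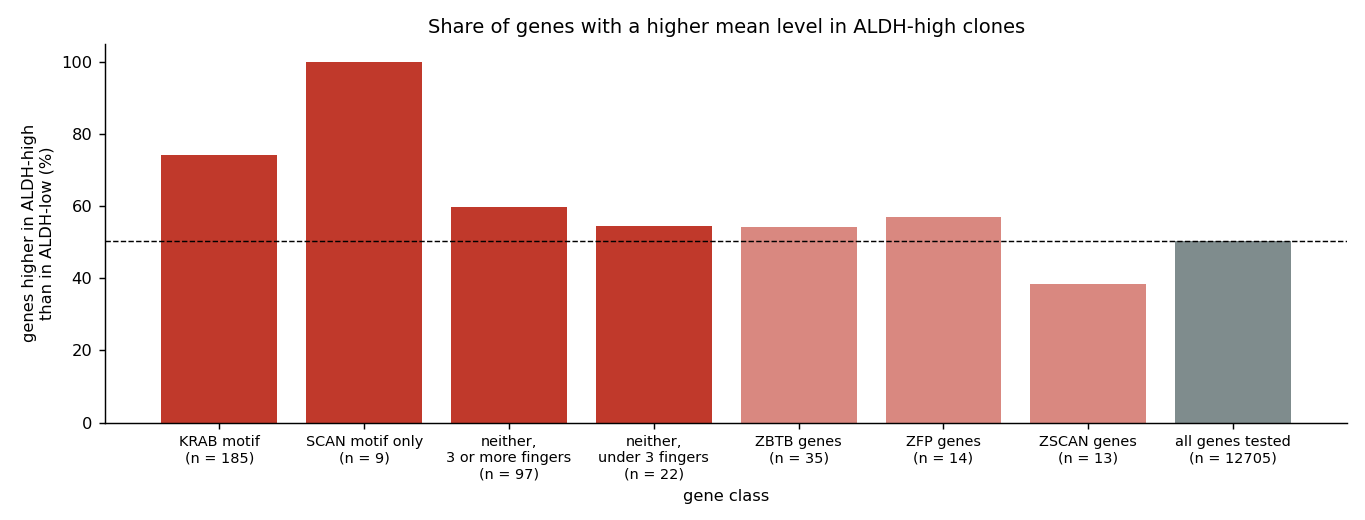
Percent of genes (y axis) with a higher mean log2(CPM + 1) in ALDH-high than in ALDH-low clones, by gene class (x axis, with the number of genes). ZNF members are in red, other zinc finger families in pale red and all tested genes in grey, and the dashed line marks the 50.4% of all genes tested. Members with a KRAB motif stand at 74.1% and those with neither motif and under 3 fingers at 54.5%.

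In a single stretch of chromosome 19, the difference between the groups came with a single library. Between ZNF101 and ZNF254, 22 members, all with a KRAB motif, followed one another with no more than 5 other coding genes between neighbouring zinc finger genes. ALDH-low clone 3 had the lowest of the 7 values in 21 of these 22 members. Their median level was 7.13, 7.67 and 7.74 CPM in the ALDH-high clones 1, 6 and 10, against 7.12, 3.2 and 7.70 CPM in the ALDH-low clones 1, 3 and 8, and 8.83 CPM in wild type. So only ALDH-low clone 3 stood apart, by a median of -1.26 log2 units from the mean of the other 6 libraries.

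Individual genes of the stretch differed widely in how far they dropped in ALDH-low clone 3. ZNF93, which represses LINE-1 retrotransposons, was at 6.28, 8.78 and 6.72 CPM in the ALDH-high clones, against 6.16, 0 and 3.92 CPM in the ALDH-low clones, and 9.79 CPM in wild type. ZNF492 had 10.73, 14.78 and 16.52 CPM in the ALDH-high clones, against 14.00, 0.04 and 8.44 CPM in the ALDH-low clones. ZNF90 had 5.84, 6.98 and 8.36 CPM in the ALDH-high clones, against 7.16, 0 and 7.88 CPM in the ALDH-low clones. For these genes the other 2 ALDH-low clones kept several CPM and lay among or below the ALDH-high clones. ZNF726, at 0 CPM, and ZNF85, at 0.04 CPM, were likewise at the bottom of the scale in ALDH-low clone 3 only, against at least 5.48 and 6.56 CPM in the ALDH-high clones. ZNF91, which represses SVA retrotransposons, was reduced but present, at 10.89, 7.84 and 8.88 CPM in the ALDH-high clones, against 9.80, 3.02 and 7.52 CPM in the ALDH-low clones. ZNF675, ZNF724P and ZNF254 differed least in ALDH-low clone 3, by -0.35, -0.37 and -0.45 log2 units from the other 6 libraries. In all, 8 of the 22 members were under 1 CPM in ALDH-low clone 3, and 0 of 22 in each of the other libraries.

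**Figure D4:**
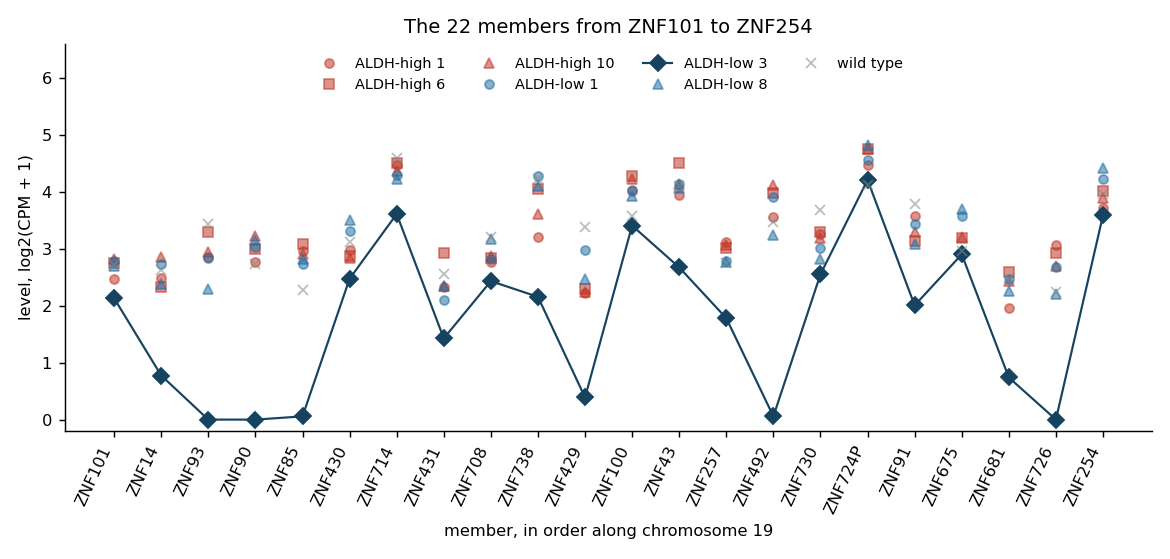
Level (log2(CPM + 1), y axis) of the 22 members from ZNF101 to ZNF254 in their order along chromosome 19 (x axis). Red symbols are ALDH-high clones, pale blue ones ALDH-low clones 1 and 8, grey crosses wild type, and the dark line joins ALDH-low clone 3, which is lowest in 21 of 22 genes and at 0 CPM for ZNF93, ZNF90 and ZNF726.

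The contrast between the groups in this stretch rested on that clone. With all 6 clones, 19 of the 22 members were higher in ALDH-high clones with a median difference of 0.47, and without ALDH-low clone 3 these became 11 of 22 and 0.04. None of the 22 passed the test (limma adjusted p = 0.263 to 0.970). The nearest tested genes in gene order that are no zinc finger gene by symbol differed less, and their distance from the stretch was not measured. ALDH-low clone 3 differed from the other 5 clones by a median of -0.35 over the 20 before the stretch (CERS1 to ATP13A1). The median was 0.00 over the 20 after it (UQCRFS1 to KCTD15) and -1.23 over the 22 members. The drop before the stretch was not particular to this clone, since ALDH-high clone 1 was at -0.44 over the same 20 genes. The low values of ALDH-low clone 3 reached beyond the stretch. ALDH-low clone 3 was over 1 log2 unit below the other 6 libraries in 29 members (9.01%, against 2.50% of all genes tested). Of these, 13 lay in the stretch, 22 on chromosome 19 and 27 carried a KRAB motif. The 29 include ZNF716, ZNF732 and ZNF704, which were low in ALDH-low clone 1 too. Other members among the 29 included ZNF28, ZNF468 and ZNF808 of the chromosome 19 run that ends with ZNF761, ZNF585A, ZNF569, ZNF790 and ZNF527 of a run on the same chromosome, and ZNF736, the member next to ZNF716 on chromosome 7 (1.81 CPM, against 9.36 to 11.04 CPM in every other library). In the run from ZNF614 to ZNF761, 15 of 16 members were higher in ALDH-high clones with a median of 0.44, and without ALDH-low clone 3 the count was 14 and the median 0.27. Over the members outside the ZNF101 to ZNF254 stretch, 67.3% were higher, with a median of 0.16, close to the values over all 322 members. Without ALDH-low clone 3, 64.3% of all 322 members were higher, with a median of 0.15.

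**Figure D5:**
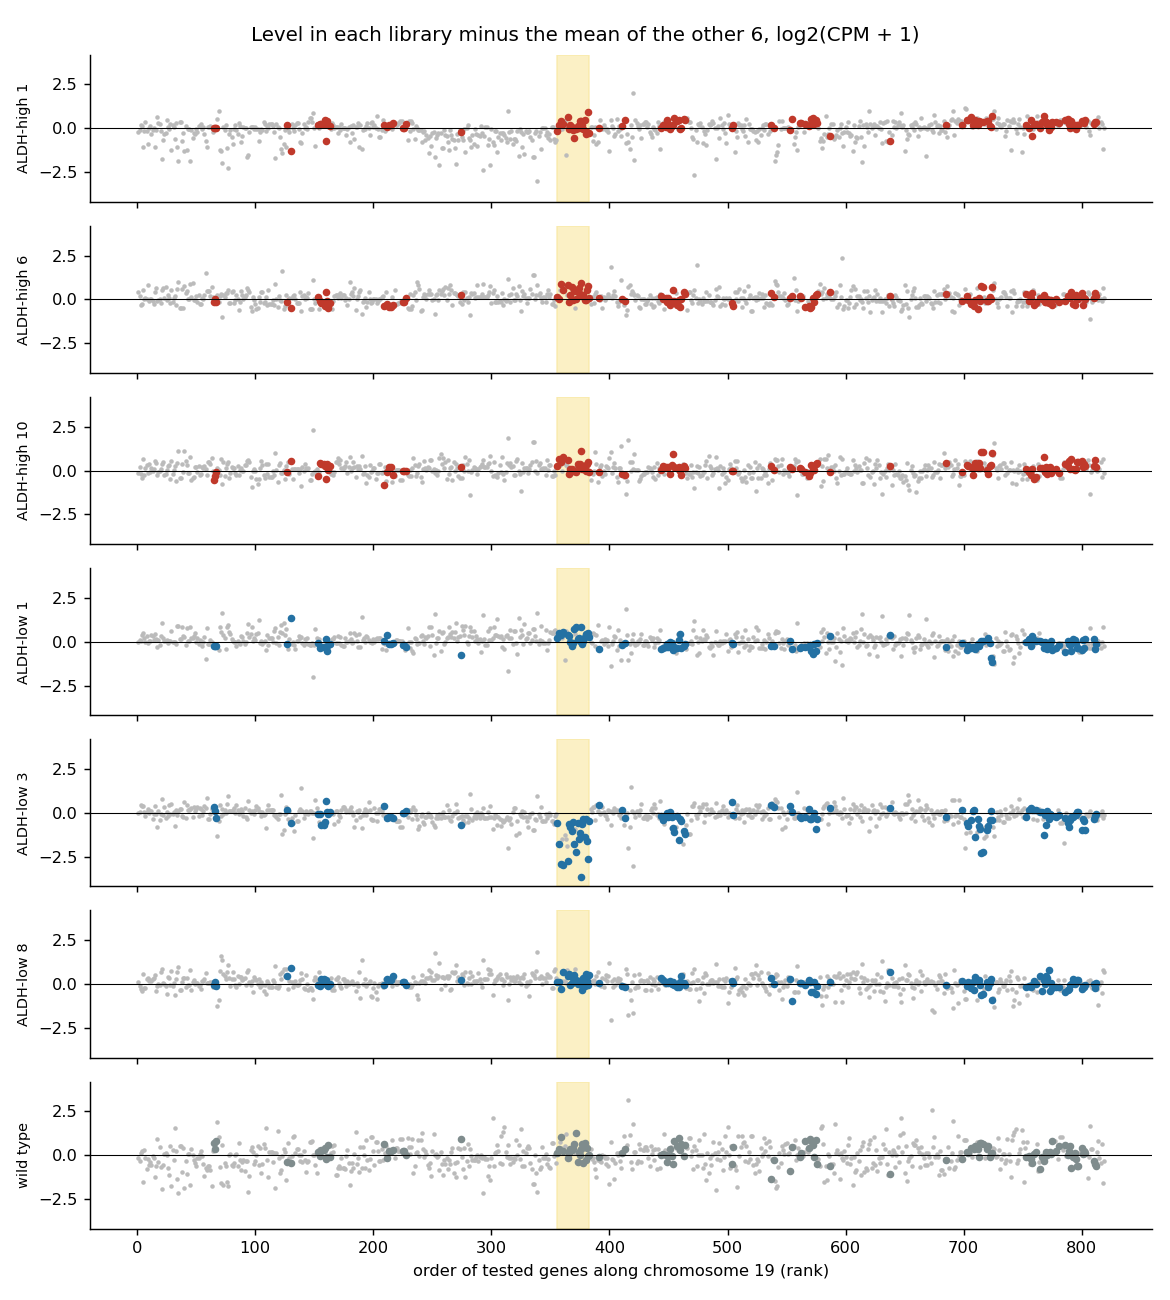
Level in each library minus the mean of the other 6 (log2(CPM + 1), y axis) for the tested coding genes of chromosome 19 in their order along it (x axis, rank), 1 panel per library. Members are coloured, other genes pale grey, and the band marks ZNF101 to ZNF254, where the members of ALDH-low clone 3 fall to a median of -1.26 while no other library does.

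The promoters of these genes are shown because neighbouring KRAB genes of this kind are copies of one another and can be compared letter by letter. Promoter sequences from RefSeq (GRCh38.p14, 250 bases before to 50 after each gene start) matched 273 of the 322 members by symbol, and 20 of the 22 in the stretch. All 20 held the letters CCAATCAG on either strand, against 4.16% of the 27305 RefSeq promoters of that length. Among matched members, which include these 20, it was in 27.5% of the 160 with a KRAB motif and in 19% of all 273. This box, which contains the CCAAT box, was picked out after the sequences were seen. The 250 bases before the start are given for 5 genes of the stretch, 4 near 0 in ALDH-low clone 3 (ZNF93, ZNF90, ZNF85 and ZNF492) and 1 that was not (ZNF254), and for the called members ZNF716 and ZNF761. All are on the plus strand, and capitals mark CCAATCAG or, in ZNF761, the GC box GGGCGG and its reverse complement.
ZNF93, chr19:19900696-19900945: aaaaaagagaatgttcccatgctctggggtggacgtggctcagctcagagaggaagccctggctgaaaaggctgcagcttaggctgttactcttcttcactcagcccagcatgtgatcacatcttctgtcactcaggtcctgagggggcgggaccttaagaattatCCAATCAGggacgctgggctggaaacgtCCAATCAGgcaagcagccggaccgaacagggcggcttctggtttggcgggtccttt
ZNF90, chr19:20077750-20077999: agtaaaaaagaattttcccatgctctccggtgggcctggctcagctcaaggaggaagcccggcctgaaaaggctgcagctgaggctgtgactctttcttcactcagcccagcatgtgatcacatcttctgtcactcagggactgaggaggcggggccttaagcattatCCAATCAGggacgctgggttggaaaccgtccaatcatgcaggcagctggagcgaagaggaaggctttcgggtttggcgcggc
ZNF85, chr19:20923001-20923250: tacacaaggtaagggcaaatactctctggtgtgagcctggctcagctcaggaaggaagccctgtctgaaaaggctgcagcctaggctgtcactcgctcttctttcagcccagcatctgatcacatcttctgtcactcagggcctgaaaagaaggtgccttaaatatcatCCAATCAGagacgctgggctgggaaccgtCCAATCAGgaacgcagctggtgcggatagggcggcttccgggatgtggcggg
ZNF492, chr19:22634074-22634323: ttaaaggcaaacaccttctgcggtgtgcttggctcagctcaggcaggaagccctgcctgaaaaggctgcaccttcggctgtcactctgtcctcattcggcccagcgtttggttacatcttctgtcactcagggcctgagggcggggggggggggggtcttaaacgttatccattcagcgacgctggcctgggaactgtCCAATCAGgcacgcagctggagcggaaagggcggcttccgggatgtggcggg
ZNF254, chr19:24086937-24087186: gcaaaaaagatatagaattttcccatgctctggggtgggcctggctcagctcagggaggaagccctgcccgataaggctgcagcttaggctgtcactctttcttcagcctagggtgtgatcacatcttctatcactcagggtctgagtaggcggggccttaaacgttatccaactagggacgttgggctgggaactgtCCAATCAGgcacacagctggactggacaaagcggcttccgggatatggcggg
ZNF716, chr7:57449927-57450176: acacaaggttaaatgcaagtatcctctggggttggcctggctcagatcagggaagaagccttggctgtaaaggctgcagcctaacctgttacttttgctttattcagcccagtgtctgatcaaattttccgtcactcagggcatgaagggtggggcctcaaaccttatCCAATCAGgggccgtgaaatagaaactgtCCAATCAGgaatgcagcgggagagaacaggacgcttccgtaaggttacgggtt
ZNF761, chr19:53431734-53431983: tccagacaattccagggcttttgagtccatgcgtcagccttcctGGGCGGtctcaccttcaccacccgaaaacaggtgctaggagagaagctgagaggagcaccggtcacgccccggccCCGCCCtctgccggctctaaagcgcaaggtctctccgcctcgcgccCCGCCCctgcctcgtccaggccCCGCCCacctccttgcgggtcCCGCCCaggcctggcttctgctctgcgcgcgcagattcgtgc
The promoters of the 5 genes of the stretch were 78.4 to 87.2% identical to one another in pairwise alignment. ZNF716, although on chromosome 7, was 71.2 to 76.0% identical to them and held the box at 2 places, as did ZNF85 and ZNF93. ZNF761 was 55.6 to 58.4% identical to the others, with no CCAAT box but 5 GC boxes in the window. GC boxes, left in lower case above, were also in the windows of ZNF93 (2), ZNF492 (2) and ZNF85 (1).

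The box was also found in 32 members outside the stretch. ALDH-low clone 3 differed from the other 6 libraries by a median of 0.11 over these 32, by -1.26 over the 20 genes of the stretch with the box, and by -0.10 over the 221 members outside the stretch without it. It was over 1 log2 unit below the other 6 libraries in 3 of the 32, in 12 of the 20 and in 10 of the 221. No matched gene of the stretch lacked the box, so box and stretch cannot be told apart there. Within the stretch ZNF254 carried it too and kept 11.04 CPM in ALDH-low clone 3. Across the 273 matched members, ETS letters (CCGGAAG) were in 43.2%, against 10.7% of all promoters. GC boxes (GGGCGG) were in 65.2% against 44.6%, CCAAT in 48.7% against 35.7%, and TATA boxes (TATAAA) in 4.03% against 12%. Both strands were searched over the 300 bases. A match describes the letters only and shows no binding.

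Members with known targets in retroelements or imprinted regions were all higher in ALDH-high clones, though none passed by limma. An unadjusted p under 0.05 was met by 3 of the 8 tested genes of the list (37.5%, against 19.7% of all genes tested). Of 11 genes on this list 10 were listed and 8 tested, 7 of them members, with a median difference of 0.52. In 5 of the 8 (62.5%, against 14.0% of all genes tested) the ALDH-high clones lay above the ALDH-low clones without overlap. The tested gene that was no member, ZNF10 (mean 1.39 CPM), is counted in both the 3 and the 5. ZNF93 is also among the 5, with a lowest ALDH-high value of 6.28 CPM, against 6.16 CPM in ALDH-low clone 1. ZNF445, a regulator of imprinted regions, had 14.19, 13.71 and 12.48 CPM in the ALDH-high clones, against 6.96, 11.23 and 9.12 CPM in the ALDH-low clones, and 11.87 CPM in wild type (difference 0.54, limma adjusted p = 0.211). ZNF274, which brings SETDB1 to the ends of ZNF genes themselves, had 18.36, 15.68 and 19.20 CPM in the ALDH-high clones, against 11.96, 11.39 and 13.64 CPM in the ALDH-low clones, and 17.90 CPM in wild type (difference 0.49, limma adjusted p = 0.182). For ZNF93, ZNF91 and ZNF808 the lower ALDH-low mean came with the low values of ALDH-low clone 3 given above.

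The partners through which KRAB proteins act showed no common direction. Of 37 tested genes for TRIM28, H3K9 methyltransferases, heterochromatin proteins and deacetylase complexes, 19 were higher in ALDH-high clones, with a median of 0.05. None passed by limma, and 3 had an unadjusted p under 0.05 (8.11%, against 19.7% of all genes tested). TRIM28 averaged 147 CPM in the ALDH-high clones and 116 CPM in the ALDH-low clones (difference 0.34, limma adjusted p = 0.305). SETDB1 averaged 10.4 CPM in the ALDH-high clones and 8.74 CPM in the ALDH-low clones (difference 0.24, limma adjusted p = 0.563). ATF7IP, the partner that stabilises SETDB1, was nearest the threshold, at a mean of 25.1 CPM in the ALDH-high clones and 15.9 CPM in the ALDH-low clones (difference 0.63, limma adjusted p = 0.0891).

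Lists of ZNF genes with roles outside KRAB repression held no gene that passed by limma. An unadjusted p under 0.05 was met by 2 of 7 RNA-processing genes (28.6%) and by 1 of 14 corepressor partners and cancer-linked genes (7.14%). No gene of the other lists met it, while 19.7% of all genes tested did. In ALDH-high clones, 4 of 7 RNA-processing genes, 5 of 7 general activators (median 0.14) and 4 of 5 genes of mitosis, SUMO and genome maintenance (median 0.13) were higher, against 1 of 3 translation genes, whose differences ran from -0.84 to 0.48. In RNA processing, ZNF326, a subunit of a complex that couples transcription to splicing, stood at 57.70, 59.76 and 61.60 CPM in the ALDH-high clones, against 39.88, 41.36 and 34.20 CPM in the ALDH-low clones. Wild type, at 31.81 CPM, lay below all clones. The ZNF326 difference of 0.62 (SE 0.142) did not pass (limma adjusted p = 0.0791). ZNF473, a factor in the processing of histone mRNA, had 18.56, 19.95 and 21.32 CPM in the ALDH-high clones, against 13.52, 13.87 and 15.56 CPM in the ALDH-low clones (difference 0.45, limma adjusted p = 0.186). These 2 of 7 genes without overlap (28.6%) were near the 26.1% of all genes tested. The other 5 tested members of the RNA list had overlapping groups, ZNF638 among them at 56.5 CPM in the ALDH-high clones and 57.5 CPM in the ALDH-low clones.

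Of 7 general activators, ZNF384 alone (14.3%, against 26.1% of all genes tested) had groups that did not overlap, at 50.67, 44.45 and 51.68 CPM in the ALDH-high clones, against 33.68, 42.43 and 42.72 CPM in the ALDH-low clones. ZNF143, an activator at many housekeeping promoters, averaged 21.1 ± 2.31 CPM in the ALDH-high clones and 19.1 ± 3.41 CPM in the ALDH-low clones (SD, n = 3 each). The mitotic factor ZNF207 (BuGZ), the member with the highest CPM, averaged 230 ± 36.5 CPM in the ALDH-high clones and 226 ± 7.30 CPM in the ALDH-low clones. Among 14 tested corepressor partners and cancer-linked ZNF genes, 5 were higher and 9 lower in ALDH-high clones, with a median of -0.18. ZNF217, an oncogene of chromosome 20, had 16.85, 18.10 and 22.68 CPM in the ALDH-high clones, against 30.64, 20.54 and 29.92 CPM in the ALDH-low clones, so the groups overlapped. ZNF703, an oncogene of luminal breast cancer, was high in a single clone, at 2.23, 20.69 and 4.24 CPM in the ALDH-high clones, against 2.44, 4.83 and 2.28 CPM in the ALDH-low clones. ZNF503, its close relative, was also highest in ALDH-high clone 6, at 10.34 CPM, against 2 to 5.16 CPM in the other 6 libraries.

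The wild-type library, which had no replicate, lay above all 6 clones in 76 members (23.6%, against 22.6% of all genes tested) and below them all in 63 (19.6%, against 25.4%). ZNF277 lay farthest below wild type, at 18.51 to 28.05 CPM in the clones, against 60.31 CPM in wild type. ZNF117, which shares its values with ERV3-1, had 6.24 to 10.65 CPM in the clones, against 22.74 CPM in wild type. On the other side, ZNF207 had 200.51 to 270.92 CPM in the clones, against 105.11 CPM in wild type. ZNF33B had 14.64 to 18.68 CPM in the clones, against 6.87 CPM in wild type. ZNF124 ranged widely in both groups, with 4.57, 1.27 and 10.16 CPM in the ALDH-high clones, against 7.56, 4.2 and 0.76 CPM in the ALDH-low clones, and 0.04 CPM in wild type, and the groups overlapped.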

How the data were processed

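RNA from 7 libraries was measured (3 ALDH-high clones, 3 ALDH-low clones, 1 wild type). The deposited table gives CPM per gene, as the authors made it, with 2 decimals. The submitters' processing notes name hg19, mm9 and the aligner BWA 0.5.9 and assign them no roles. Per the file headers, CAGEr (software for tags at transcript starts) is part of each column name, but the labels do not state the library type. Listed CPM summed to 967084.9 to 1019855.1 per library. The smallest values above 0 were about 0.04 CPM, but whole reads could not be recovered for every library, so depth is not given and no count test was run.

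Rows were joined to GENCODE 29 by identifier for chromosome and gene order (319 of 322 members), and no coordinate of that build is printed. KRAB, SCAN and C2H2 motifs were searched in the longest open frame of its coding transcripts, which misses divergent domains. Runs chained zinc finger genes with at most 5 other coding genes between them. The test took genes that reached 1 CPM in 3 or more of the 6 clones (12705, all 322 members included) with limma 3.58.1 in R 4.3.3 on log2(CPM + 1) with a variance trend, two-sided, with Benjamini-Hochberg adjustment at 0.05, after a test on simulated data. Differences subtract ALDH-low from ALDH-high on that scale, which is compressed near 0 CPM. An exact permutation test of 3 against 3 clones cannot reach 0.05. The text names the called members, the 10 largest differences in each direction without overlap, the highest levels, the farthest wild-type and single-clone values, and role and corepressor lists. Some further genes of the stretch and motifs were chosen after their values were seen. Members and lists were chosen with earlier results of these data known.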

Additional observations from a re-analysis of the deposited data

How the results depend on the processing

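The share of members higher in ALDH-high clones stayed between 64.3 and 72.7%, and their median difference between 0.12 and 0.20, under every alternative run: quantile or median-ratio scaling, a pseudocount of 0.1 or 5, the filter raised to 5 CPM or dropped, robust or trend-free variance estimates, weighted libraries, wild type in the fit, each clone left out, 1 gene per set of identical values, membership at 1 or 10 CPM, and members outside the ZNF101 to ZNF254 stretch. The identical-value and stretch alternatives were chosen after seeing the data. The number of called members was less stable. Library weights gave 9 (ZNF716, ZNF732, ZNF761, ZNF326, ZNF783, ZNF285, ZNF256, ZNF589 and ZNF704), membership at 1 CPM gave 6, membership at 10 CPM gave 0, and leaving out a clone gave 1 to 3. Of all genes tested, a filter at 5 CPM called 86, library weights 700, and leaving out a clone 34 to 173, against 170. The causes were not tested. Of the alternative values for single genes, 496 kept their side of the threshold, 8 lost and 4 gained it, and none reversed. Tests on read counts (edgeR, DESeq2) were not run, because whole reads could not be recovered from every column. No paired analysis was run, because the labels give no pairing between ALDH-high and ALDH-low clones. With 3 clones per group of a single line, an effect of sorting and a trait of single clones cannot be told apart, and levels near 0 CPM rest on few reads.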

Other observations

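In 8 members the higher of ALDH-high clone 1 and wild type was under 0.6 times the lowest of the other 5 libraries. These were 2.48% of members, a smaller share than the 4.22% of all genes tested. ZNF598, an E3 ligase that senses collided ribosomes, had 6.52 CPM in ALDH-high clone 1 and 35.39 to 49.48 CPM in the other 5 clones, with 5.68 CPM in wild type. ZNF609 had 8.66 CPM in ALDH-high clone 1 and 24.63 to 46.76 CPM in the other 5 clones, with 9.71 CPM in wild type. The others were ZNF768, ZNF746, ZNF513 and ZNF710, and ZNF618 and ZNF114, whose ALDH-high clones also lay below the ALDH-low clones without overlap. ZNF385D and ZNF18 were high in the same pair of libraries (0.621% of members, against 0.559% of all genes tested), ZNF385D at 147.82 CPM in ALDH-high clone 1 and 54.44 to 85.41 CPM in the other 5 clones, with 201.31 CPM in wild type.

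Single clones also stood out in single genes. ZNF286A had 12.95 CPM in ALDH-high clone 1, against 1.92 to 5.16 CPM in the other 6 libraries. ZNF765, a neighbour of ZNF761, had 7.64 CPM in ALDH-low clone 1, against 14.28 to 17.20 CPM elsewhere. ZNF460 had 45.96 CPM in ALDH-low clone 8, against 22.86 to 31.21 CPM elsewhere. The ZNF genes under the 3 CPM threshold showed the same direction as the members, with 51 of 72 tested genes (70.8%) higher in ALDH-high clones, against 50.4% of all genes tested. Of the 72, 4 passed by limma, all higher in ALDH-high clones, where 1.34% of all genes tested passed, 0.645% higher. Genes at such low levels can meet the filter of the test through the ALDH-high clones alone. These 4 calls are therefore no support for a common direction.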
